A study of Equus caballus with 6 samples.

Results

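The genes described here encode the enzymes and carriers that turn cholesterol into steroid hormones, measured in both tissues of the horse blastocyst. These are the inner cell mass (ICM), from which the fetus and the endoderm arise, and the trophectoderm (TE), the epithelium on the outside that goes on to build the placenta. They were chosen by symbol, from STAR, CYP17A1, CYP19A1, CYP11A1, HSD3B1, HSD17B1, HSD17B4, FDX1, FDXR and POR, and 9 of these 10 symbols had a row among the 12270 rows of the deposited table. HSD17B4 was not analysed here. RNA was sequenced from 3 ICM libraries (15, 22 and 25) and 3 TE libraries (16, 23 and 24) of in vivo blastocysts (Equus caballus) collected on day 8 from superovulated mares. Pronase, a mix of proteases, was applied to every blastocyst, TE was then taken off mechanically, and ICM was purified by immunosurgery, which kills the outer cells with antibody and complement, so tissue and isolation method cannot be told apart. No breed, age or mare is given in the labels, and the RNA was amplified before sequencing.

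Steroid synthesis starts when STAR, the steroidogenic acute regulatory protein, moves cholesterol to the inner mitochondrial membrane, where the P450 enzyme CYP11A1 cuts its side chain to give pregnenolone. HSD3B enzymes convert pregnenolone to progesterone, CYP17A1 makes androgens by its hydroxylase and lyase activities, CYP19A1 (aromatase) turns androgens into estrogens, and HSD17B1 reduces estrone to the more active estradiol. FDXR and FDX1 pass electrons to the mitochondrial P450 enzymes, and POR passes them to CYP17A1 and CYP19A1 in the endoplasmic reticulum. The early horse conceptus is known for making estrogens, and its trophoblast and yolk sac are known sites of this synthesis.

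The libraries held 6526212 to 10686659 reads in the genes listed. ICM 25 differed from ICM 15 and 22 in its epiblast and hypoblast marker sums, but not in that of trophectoderm. The summed RPKM (the authors' read density per kilobase, corrected for depth) of 8 epiblast markers was 356, 344 and 86.7 in ICM 15, 22 and 25, against 105 to 169 in TE. DNMT3B (188, 180 and 18.6 RPKM in ICM, against 47.7 to 87.2 in TE) and POU5F1 (93.1, 102 and 36.0, against 33.2 to 53.6) made up most of that sum. Of the same 8 markers, KLF4, NANOG, GDF3 and SOX2 were higher in ICM 25 (8.09, 1.75, 1.44 and 0.44 RPKM) than in any TE library (at most 2.22, 0.16, 0.07 and 0). The summed RPKM of 8 hypoblast markers was 97.2, 104 and 42.5 in ICM 15, 22 and 25, against 38.5 to 47.3 in TE, so that ICM 25 lay within the TE range. That of 7 trophectoderm markers was 37.5, 61.1 and 43.1 in ICM, against 133 to 168 in TE. The trophectoderm factors GATA3 and TFAP2A were above 0 in every ICM library, and all epiblast markers but SOX2 and GDF3 were above 0 in every TE library. Of the markers of other cell types, CD68 was the only 1 of 5 for blood and immune cells with a row, with 0.32 to 1.52 RPKM in ICM libraries against 0.41 to 1.04 in those of TE. The 3 of 5 for uterine epithelium summed to 4.28 to 4.98 RPKM in ICM, against 3.67 to 5.70 in TE. These 3 did not go the same way. PGR was at 0.55 to 0.77 RPKM in ICM against 1.83 to 2.45 in TE. FOXA2, also among the hypoblast markers, was at 2.33, 2.76 and 0.38 RPKM in ICM 15, 22 and 25 against 0.54 to 1.53 in TE. MUC1 overlapped between the tissues. The 6 granulosa and cumulus markers were not analysed here. Because of ICM 25, each test of the steroid synthesis genes below is given with and without it.

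All 9 genes had reads in all 6 libraries, and their levels spanned a wide range. Averaged over the 6 libraries, they ran from FDX1 (28.9 RPKM), STAR (22.7), POR (18.4), CYP19A1 (12.6) and CYP17A1 (8.02) to CYP11A1 (3.75), HSD3B1 (3.30), HSD17B1 (2.01) and FDXR (0.45). HSD17B1 was above FDXR in 6 of 6 libraries. The other neighbours in this order were not separated in every library: CYP19A1 was above CYP17A1 in 5 of 6, and CYP17A1 above CYP11A1 and CYP11A1 above HSD3B1 in 3 of 6 each. Of these 9 genes STAR varied least across the libraries, its highest value being 1.55 times its lowest, and CYP17A1 most, at 30.2 times.

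**Figure D1:**
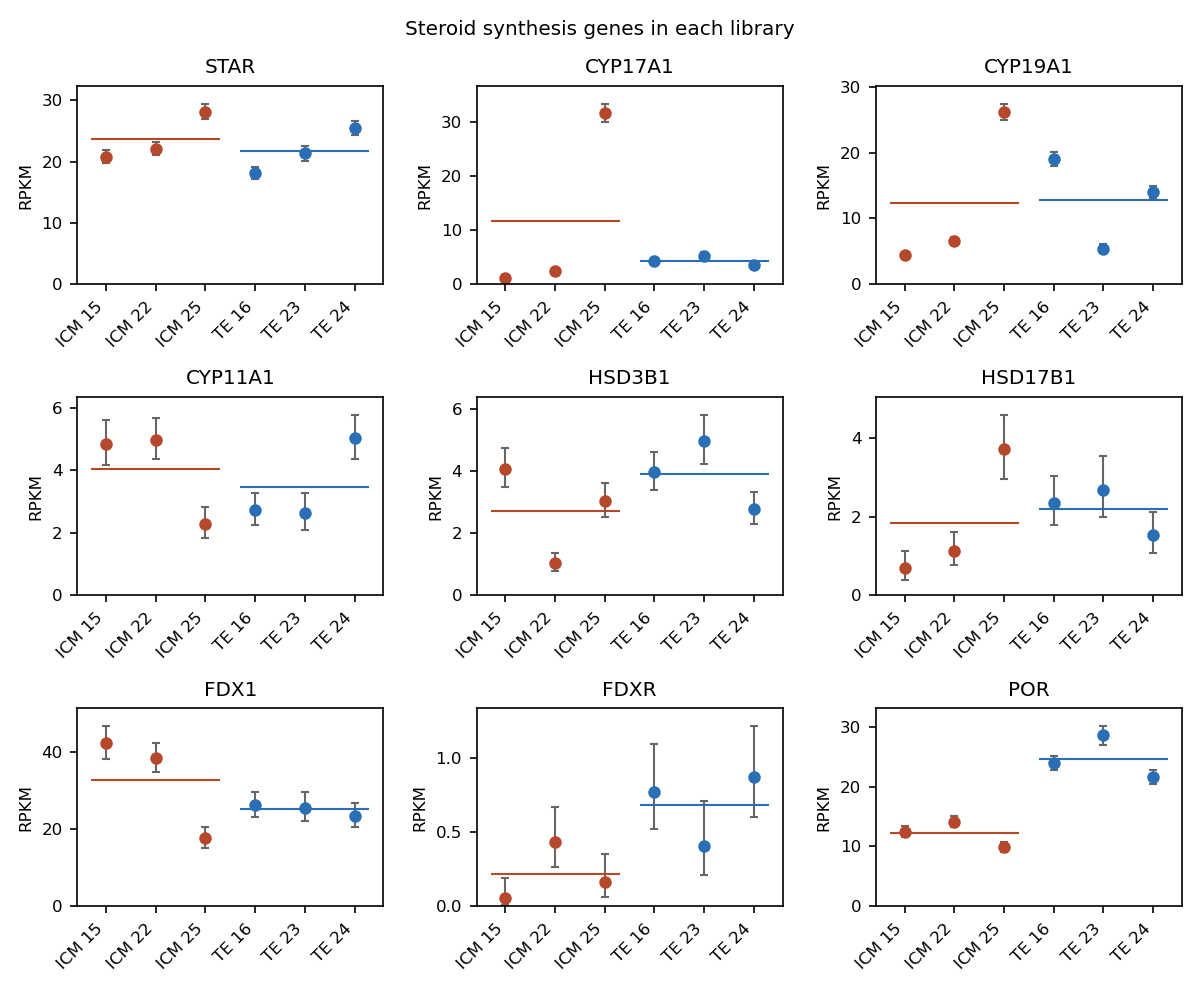
RPKM of the 9 steroid synthesis genes in each of the 3 ICM libraries (red) and 3 TE libraries (blue), on linear axes that start at 0. Bars are exact 95% Poisson intervals of the reads, which cover counting error only, and lines are tissue means. CYP17A1 stands at 31.7 RPKM in ICM 25 and at 5.17 RPKM or less in the other 5 libraries, while POR is lower in every ICM library than in any TE library.

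Levels in the tissues were compared on log2(RPKM + 1) with limma, over the 9436 genes that reached 1 RPKM in 3 or more libraries, and p-values were adjusted over all of these genes by the Benjamini-Hochberg method. A log2 difference is ICM minus TE, given with its standard error (SE), and on this scale changes of genes with low RPKM come out too small. Of the 9 steroid synthesis genes 8 passed the filter, FDXR being too low. None of the 8 passed an adjusted p of 0.05 in limma, and 1, POR, had an unadjusted p under 0.05. Over all genes tested, 1.87% were called and 16.9% had an unadjusted p under 0.05. The median log2 difference of the 8 genes was -0.07, against -0.15 over all genes tested, and 4 of the 8 had a positive difference. Without ICM 25 these medians were -0.66 and -0.01, and CYP11A1 and FDX1 were the genes with a positive difference. Nothing in the labels ties the libraries to separate mares, so these p-values speak of the spread among the libraries, which may be partly technical.

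STAR, the cholesterol carrier, was abundant in both tissues. It stood at 20.8, 22.1 and 28.1 RPKM in ICM 15, 22 and 25, and at 18.2, 21.3 and 25.5 RPKM in TE 16, 23 and 24. The groups overlapped throughout. Its mean was 23.7 ± 3.91 RPKM in ICM and 21.7 ± 3.66 in TE (SD, n = 3 each), with a log2 difference of 0.12 (SE 0.24, 95% interval -0.43 to 0.68, limma adjusted p = 0.85). Without ICM 25 the difference was -0.00082 (SE 0.19, adjusted p = 0.998). In every library STAR ranked between the 84.0th and the 92.8th percentile of RPKM among all rows of the table. STAR lies on chromosome 27 from 7584405 to 7592515 in the deposited coordinates, whose genome build is not named.

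CYP11A1, the side-chain cleavage enzyme, was much lower than STAR, near the middle of the table. It stood at 4.85, 4.98 and 2.28 RPKM in ICM 15, 22 and 25 and at 2.72, 2.63 and 5.02 RPKM in TE 16, 23 and 24. In each tissue, values near 5 and values below 3 RPKM both occurred, so the groups overlapped. The log2 difference was 0.17 (SE 0.33, 95% interval -0.58 to 0.91, limma adjusted p = 0.85), and 0.45 without ICM 25 (adjusted p = 0.32). The gene lies on chromosome 1 from 119346895 to 119359225.

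HSD3B1, which makes progesterone from pregnenolone, stood at 4.07, 1.04 and 3.01 RPKM in ICM 15, 22 and 25 and at 3.96, 4.96 and 2.77 RPKM in TE 16, 23 and 24. ICM 22 was the low library here, with 51 reads, while ICM 25 lay within the range of the others. The log2 difference was -0.48 (SE 0.37, 95% interval -1.30 to 0.35, limma adjusted p = 0.56), -0.58 without ICM 25 (adjusted p = 0.38) and -0.09 without ICM 22 (adjusted p = 0.88). The NCBI gene table of the TB-T2T assembly lists HSD3B1 as a synonym of horse HSD3B2, so reads of closely related HSD3B copies, if counted together, cannot be separated. The row lies on chromosome 5 from 50018942 to 50026870.

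CYP17A1, the enzyme of androgen synthesis, was the most uneven of the 9 genes. ICM 15 and 22 held 1.05 and 2.41 RPKM and ICM 25 held 31.7, against 4.24, 5.17 and 3.56 RPKM in TE 16, 23 and 24. ICM 15 and 22 thus lay below all TE libraries and ICM 25 above them. The reads behind these values were 49, 137 and 1457 in ICM and 211, 189 and 172 in TE, and the exact 95% counting interval of ICM 25, 30.1 to 33.4 RPKM, was far from those of the other 5 libraries, whose upper bounds were at most 5.96. The cDNA was amplified and carried no molecular identifiers, so such intervals cover counting error only. With a mean of 11.7 ± 17.3 RPKM in ICM and 4.32 ± 0.81 in TE (SD, n = 3 each), the log2 difference was 0.21 (SE 0.85, 95% interval -1.72 to 2.15, limma adjusted p = 0.93). Without ICM 25 it was -0.999 (SE 0.28, adjusted p = 0.056), so the sign of the difference rested on this library.

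In rank, CYP17A1 was a low or middling gene in 5 libraries and among the highest in ICM 25. It stood at the 25.6th, 38.5th and 93.7th percentile of RPKM in ICM 15, 22 and 25, and at the 53.6th, 57.4th and 47.4th in TE 16, 23 and 24. The level in ICM 25 was 13.1 times that of ICM 22, the next ICM library, and 6.13 times the highest TE value. On the log2 scale ICM 25 exceeded the mean of ICM 15 and 22 by 3.63 for CYP17A1, where the median over all genes tested was -0.41, and 8 of 9436 genes, CYP17A1 among them, showed a departure at least as large. In the authors' deposited table, whose DESeq analysis of the same 6 libraries called 16.6% of its rows at an adjusted p under 0.05, CYP17A1 had a log2 fold of ICM over TE of 1.44 with an adjusted p of 6.26e-07. That fold compares plain means, and ICM 25 carried the ICM mean, at 31.7 RPKM against 1.05 and 2.41 in ICM 15 and 22. On log2 values the difference was 0.21, and it was -0.999 without ICM 25. The deposited coordinates of CYP17A1 are chromosome 1 from 27404554 to 27410637.

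CYP19A1, aromatase, varied within both tissues. It stood at 4.36, 6.52 and 26.1 RPKM in ICM 15, 22 and 25 and at 19.1, 5.36 and 14.0 RPKM in TE 16, 23 and 24. ICM 25 was the highest of the 6 and TE 23 lay between ICM 15 and 22, so the groups overlapped across most of the range. The mean was 12.3 ± 12.003 RPKM in ICM and 12.8 ± 6.93 in TE (SD, n = 3 each), with a log2 difference of -0.27 (SE 0.62, 95% interval -1.67 to 1.14, limma adjusted p = 0.87). Without ICM 25 it was -0.97 (SE 0.44, adjusted p = 0.20).

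The spread of CYP19A1 among the TE libraries was wide for a gene in this tissue. Its highest TE value was 3.56 times its lowest, and its SD on the log2 scale, 0.86, exceeded that of 99.6% of the genes tested in TE, where the median SD was 0.19. In ICM its SD was 1.23, above 97.9% of genes, with a median of 0.44. CYP17A1 differed from it in this respect: its SD of 2.13 exceeded that of 99.9% of genes in ICM, while its SD of 0.22 in TE exceeded that of 58.7%. CYP19A1 lies on chromosome 1 from 139140381 to 139204543 in the deposited coordinates.

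HSD17B1, which forms estradiol, was low in all libraries, at 0.69, 1.13 and 3.71 RPKM in ICM 15, 22 and 25 and 2.34, 2.69 and 1.54 RPKM in TE 16, 23 and 24. As with CYP17A1, ICM 15 and 22 lay below all TE libraries and ICM 25 above them. The 6 libraries had the same order for both genes, from ICM 15, ICM 22, TE 24, TE 16 and TE 23 up to ICM 25, although HSD17B1 spanned 5.40 times and CYP17A1 30.2 times. The log2 difference of HSD17B1 was -0.29 (SE 0.38, 95% interval -1.17 to 0.58, limma adjusted p = 0.76), and -0.73 without ICM 25 (adjusted p = 0.11). Only 16 to 85 reads per ICM library and 37 to 58 per TE library lay behind these values. The 95% counting intervals of neighbours in the order overlapped in part, so the exact order is uncertain. For HSD17B1 they were 1.08 to 2.12 RPKM in TE 24 and 1.77 to 3.02 in TE 16. HSD17B1 lies on chromosome 11 from 20468396 to 20470377.

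**Figure D2:**
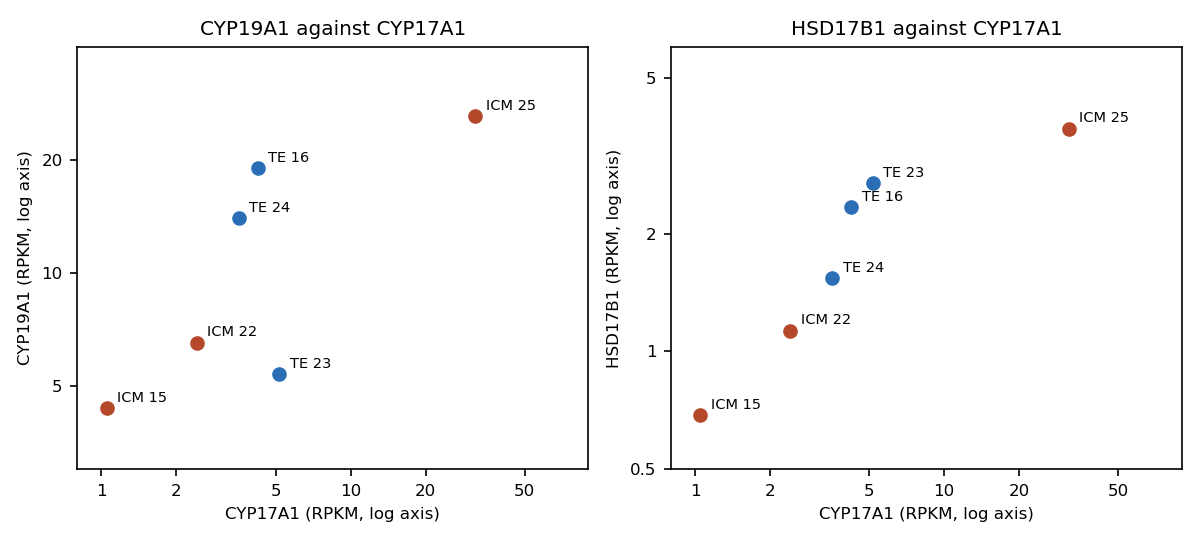
CYP19A1 (left) and HSD17B1 (right) against CYP17A1, in RPKM on log axes, with 1 point per library (ICM red, TE blue). HSD17B1 has the same order of libraries as CYP17A1, while TE 23 combines 5.17 RPKM of CYP17A1 with 5.36 RPKM of CYP19A1.

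The ratio of CYP19A1 to CYP17A1 does not move when a library is rescaled. It was 4.16, 2.71 and 0.83 in ICM 15, 22 and 25 and 4.50, 1.04 and 3.93 in TE 16, 23 and 24. Each tissue thus held 1 library with a ratio near 1, ICM 25 with much of both transcripts and TE 23 with little of CYP19A1, and 2 libraries in which aromatase was in clear excess. The mean log2 ratio was 1.07 ± 1.21 in ICM and 1.40 ± 1.17 in TE (SD, n = 3 each), a difference of -0.33 (p = 0.6 by a two-sided exact permutation test, which cannot go below 0.1 with 3 against 3 libraries). Without ICM 25 the difference was 0.35 (exact permutation p = 0.9).

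The electron carriers split into an abundant and a scarce one on the mitochondrial side. FDX1 (ferredoxin, also called adrenodoxin) stood at 42.2, 38.4 and 17.6 RPKM in ICM 15, 22 and 25 and at 26.2, 25.5 and 23.4 RPKM in TE 16, 23 and 24. ICM 15 and 22 were above all TE libraries and ICM 25 below them, the reverse of their placing for CYP17A1. The log2 difference was 0.28 (SE 0.33, 95% interval -0.48 to 1.04, limma adjusted p = 0.73). Without ICM 25, FDX1 was higher in ICM, with a difference of 0.66 (SE 0.16, limma adjusted p = 0.039), while without ICM 15 the difference was 0.06 and without ICM 22 0.12 (adjusted p = 0.95 and 0.87). FDX1 lies on chromosome 7 from 19152827 to 19177478.

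FDXR, the reductase that charges FDX1, was near the floor of the table. ICM 15, 22 and 25 had 2, 20 and 6 reads (0.05, 0.44 and 0.16 RPKM), and TE 16, 23 and 24 had 31, 12 and 34 reads (0.77, 0.41 and 0.87 RPKM). ICM 22 and TE 23 overlapped, and FDXR was not tested. In the authors' deposited table its log2 fold of ICM over TE was -1.66 with an adjusted p of 0.13. The row spans chromosome 11 from 6980358 to 6990457.

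POR, the reductase of the microsomal P450 enzymes, was the gene of the 9 whose tissues did not overlap. It stood at 12.4, 14.1 and 9.89 RPKM in ICM 15, 22 and 25 and at 23.9, 28.6 and 21.6 RPKM in TE 16, 23 and 24. All ICM values were below all TE values, as the values of the tissues did not overlap for 24.6% of all genes tested. The mean was 12.2 ± 2.14 RPKM in ICM and 24.7 ± 3.56 in TE (SD, n = 3 each), with a log2 difference of -0.97 (SE 0.24, 95% interval -1.52 to -0.42, limma adjusted p = 0.089). Without ICM 25 POR was lower in ICM by the test, with a difference of -0.84 (SE 0.19, limma adjusted p = 0.029). In the authors' deposited table POR had a log2 fold of ICM over TE of -1.02 with an adjusted p of 0.0045. POR lies on chromosome 13 from 10516248 to 10544960, and it also serves P450 enzymes outside steroid synthesis.

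Without ICM 25, FDX1 and POR were thus the 2 of 8 genes past the threshold, 1 higher and 1 lower in ICM. In that fit 5.89% of all genes tested were called on the ICM side and 5.62% on the TE side, 11.5% in all. The lower epiblast and hypoblast marker sums of ICM 25 went along with its FDX1, CYP17A1, CYP19A1 and HSD17B1 values, and their part in these was not tested. For POR, ICM 25 departed from the mean of ICM 15 and 22 by -0.39 on the log2 scale. The median departure over all genes tested was -0.41. In bulk samples, fewer cells of a type and less RNA per cell cannot be told apart.

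**Figure D3:**
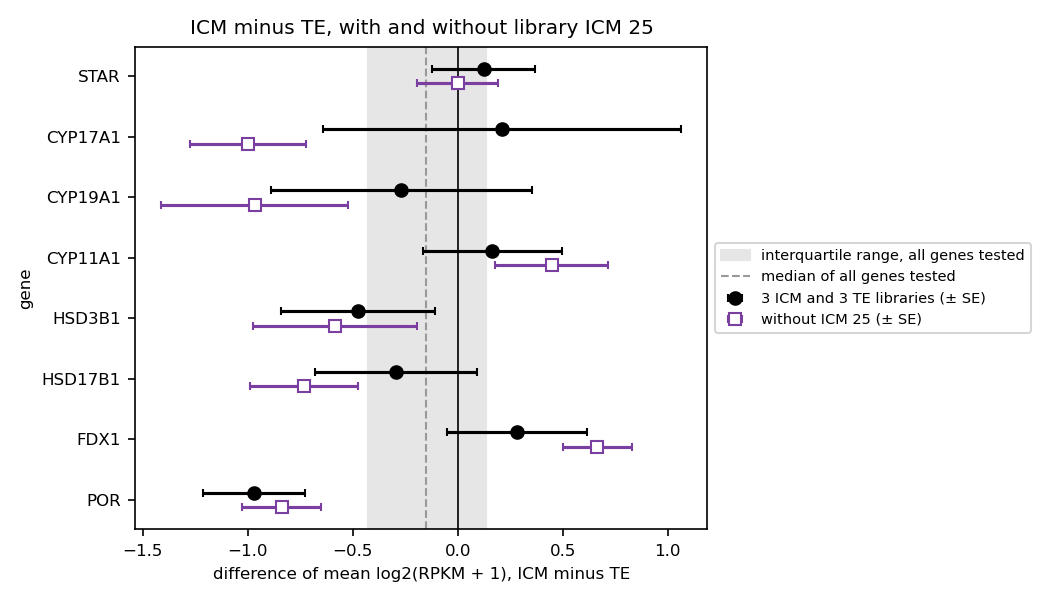
Difference of mean log2(RPKM + 1), ICM minus TE, for the 8 genes tested, with all 6 libraries (filled circles) and without ICM 25 (open squares); bars are ± SE. The grey band is the interquartile range of all genes tested (-0.43 to 0.14) and the dashed line their median (-0.15). CYP17A1 is at 0.21 with all libraries and at -0.999 when ICM 25 is left out, while POR stays at -0.97 and -0.84.

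**Figure D4:**
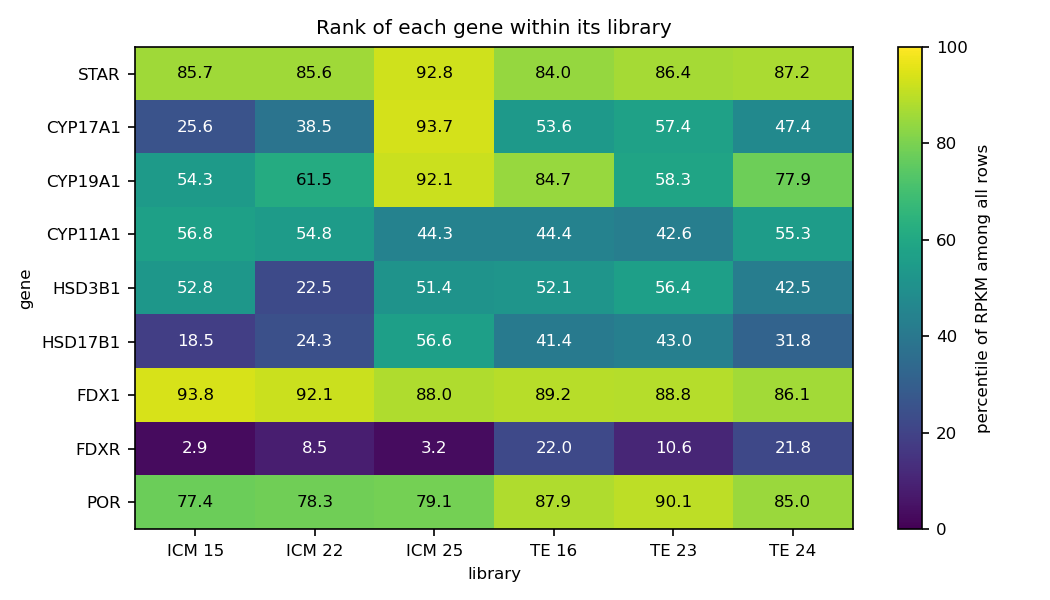
Percentile of each gene's RPKM among all 12270 rows, per library (columns, ICM left, TE right). STAR stays between 84.0 and 92.8, CYP17A1 runs from 25.6 in ICM 15 to 93.7 in ICM 25, and FDXR stays at or below 22.0.

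For each of the 3 leading genes, the genes with the most similar pattern over the 6 libraries were taken from 5328 others with a mean of at least 5 RPKM, by Pearson r of log2(RPKM + 1). These are descriptions of 6 libraries that share 2 tissues and 1 outlying library. For CYP17A1 they included LOC100630107 (r = 0.998) and MOB1B, a kinase adaptor of the Hippo pathway (0.99). LOC100630107 stood at 0.22, 1.14 and 27.9 RPKM in ICM 15, 22 and 25 and at 2.82, 2.71 and 1.84 RPKM in TE 16, 23 and 24. MOB1B had the same order of libraries as CYP17A1 over a narrower range, at 6.76, 7.47 and 11.8 RPKM in the same ICM libraries and 8.23, 9.05 and 8.12 RPKM in those of TE. Without ICM 25 and ICM 15, the 2 libraries farthest from the median, r was 0.95 for LOC100630107 and 0.97 for MOB1B. The libraries left were also used to choose these genes, so these r are no independent check of the likeness.

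For CYP19A1 the closest were GATSL3 (r = 0.96), the annexin ANXA3 (0.93), ACTR2, a subunit of the actin-nucleating Arp2/3 complex (0.93), and BAIAP2L1, an actin-binding membrane adaptor (0.91). ANXA3 had the same order of libraries as CYP19A1, at 21.8, 29.6 and 39.7 RPKM in ICM 15, 22 and 25 and 33.1, 24.7 and 30.1 RPKM in TE 16, 23 and 24. For STAR they were the mitochondrial arginase ARG2 (r = 0.97), PHACTR4, a regulator of phosphatase and actin (0.96), the ubiquitin ligase RNF167 (0.94) and the nuclear protein ADNP (0.94). Without the 2 libraries farthest from the median, r was 0.82 to 0.96 for the 4 genes of CYP19A1 and 0.86 to 0.95 for those of STAR. Here too the libraries left had been used to choose the genes.

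The surrounding pathway was followed in 7 lists with 144 symbols, of which 97 had a row and 73 rows passed the filter. Among the 73, 7 were called by limma (9.59%, where 1.87% of all genes tested were), 3 of them on the ICM side and 4 on the TE side. The tissues did not overlap for 29 of the 73 (39.7%, against 24.6% of all genes tested). Without ICM 25 the calls came to 21 of 73 (28.8%, against 11.5%), and the 7 passed there too (limma adjusted p = 0.0011 for CYP1B1 to 0.014 for STARD4). Without any 1 of the TE libraries, when at most 1 gene of the whole table was called, the count in these lists was 0, and without ICM 15 it was 4. The lists were written with earlier results of these data known, so these counts describe them and are not independent evidence.

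Before the first enzyme, the list for cholesterol supply and entry had 13 rows tested, with 1 call higher in ICM and 1 higher in TE, a median log2 difference of -0.35 and 2 of 13 differences above 0. SOAT1, which stores cholesterol as esters, was higher in ICM (21.7 ± 3.40 against 7.53 ± 0.99 RPKM, log2 difference 1.41, limma adjusted p = 0.032). STARD4, a soluble sterol carrier related to STAR, was lower in ICM (10.8 ± 3.11 against 28.7 ± 3.62 RPKM, log2 difference -1.36, adjusted p = 0.047). VDAC1, the channel of the outer mitochondrial membrane, was at 98.0 ± 15.8 RPKM in ICM and 187 ± 21.4 in TE, which missed the threshold (adjusted p = 0.092). Without ICM 25 the list had 1 call on the ICM side and 5 on the TE side. Among the 5 were VDAC1 (limma adjusted p = 0.030), STARD5 (0.026) and the lipoprotein receptor SCARB1 (0.045). For comparison, the same fit put 5.62% of all genes tested past the threshold toward TE and 5.89% toward ICM. Genes past the threshold numbered 1086 there and 176 with all 6 libraries. Whether the 13 rows differ from other genes in this was not tested.

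In the list of other steps of steroid synthesis, 10 rows were tested. DHRS9, a dehydrogenase that acts on retinol and on 3-alpha-hydroxysteroids, was the call, lower in ICM (0.65, 1.70 and 1.33 RPKM in ICM 15, 22 and 25 against 8.24, 10.5 and 13.1 in TE 16, 23 and 24, limma adjusted p = 0.014). The 17-beta-hydroxysteroid dehydrogenases lay on both sides. HSD17B7, which acts in cholesterol synthesis and on estrone, was at 24.6, 28.0 and 11.4 RPKM in ICM against 54.7, 48.6 and 64.1 in TE (adjusted p = 0.077). HSD17B11, which oxidises androgen metabolites and sits on lipid droplets, was at 49.0, 42.3 and 19.5 RPKM in ICM against 17.7, 12.9 and 12.9 in TE (adjusted p = 0.13). Neither pair of groups overlapped, and without ICM 25 both passed (limma adjusted p = 0.013 and 0.0049). The median log2 difference of this list was -0.26, with 3 of 10 differences above 0.

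The electron partners of the P450 enzymes other than POR, FDX1 and FDXR gave 9 rows tested and 0 calls by limma, with 0 at an unadjusted p under 0.05, a median log2 difference of -0.35, and 0 calls without ICM 25. Over all genes tested these shares were 1.87% called, 16.9% at an unadjusted p under 0.05, and 11.5% called without ICM 25. With 9 rows, 0 calls do not set the list apart. The microsomal cytochrome b5, CYB5A, which raises the lyase activity of CYP17A1, had 2 rows at different positions. They stood at 18.1, 24.4 and 8.77 RPKM and at 5.87, 7.53 and 3.96 RPKM in ICM 15, 22 and 25, against 20.1, 21.0 and 26.7 RPKM and 8.01, 7.86 and 8.92 RPKM in TE 16, 23 and 24, and the split of reads between the rows is uncertain. In both rows ICM 25, the library with most CYP17A1, was the lowest of the 6. On the log2 scale it departed from the mean of ICM 15 and 22 by -1.17 and -0.63. The median departure over all genes tested was -0.41, so most genes were lower in this library. The mitochondrial cytochrome b5, CYB5B, was at 40.1 ± 12.03 RPKM in ICM and 57.0 ± 4.25 in TE (limma adjusted p = 0.37).

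The list of steroid conjugation and breakdown had 7 rows tested, a median log2 difference of 0.50 and 2 calls, both higher in ICM. They were CYP1A1 and CYP1B1, P450 enzymes that hydroxylate estrogens and are well known as targets of the aryl hydrocarbon receptor. CYP1A1 had 190, 247 and 128 reads in ICM 15, 22 and 25 and 0, 1 and 0 in TE 16, 23 and 24 (limma adjusted p = 0.013). CYP1B1 had 300, 627 and 1478 reads in ICM and 3, 2 and 1 in TE (adjusted p = 0.014), with ICM 25 again highest, at 35.4 RPKM. STS, the steroid sulfatase, stood at 1.63, 1.25 and 4.21 RPKM in ICM and 0.85, 1.14 and 1.15 in TE (adjusted p = 0.39), so that ICM 25 was the highest library for this gene as well.

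Among 17 transcription factors of steroid genes tested, with a median log2 difference of -0.38, the call was GATA3, which also defines trophectoderm (4.07 ± 2.09 RPKM in ICM against 32.9 ± 3.26 in TE, limma adjusted p = 0.014). ESRRG, the estrogen-related receptor gamma, known in human placenta to act on CYP19A1, stood at 21.5, 16.6 and 4.36 RPKM in ICM 15, 22 and 25 and at 51.0, 55.6 and 49.0 RPKM in TE 16, 23 and 24. All ICM values were below all TE values (log2 difference -2.04, SE 0.48, adjusted p = 0.074), and without ICM 25 ESRRG passed (adjusted p = 0.0054). In ICM 25, ESRRG was at its lowest of the 6 libraries and CYP19A1 at its highest. ESRRB, a related receptor, was at 1.55 ± 0.80 RPKM in ICM and 3.79 ± 0.37 in TE (adjusted p = 0.15). The cAMP and hormone signalling list covers the pathway by which gonadotropins act on STAR. It had 0 calls in 9 rows by limma and 0 at an unadjusted p under 0.05. Over all genes tested these shares were 1.87% and 16.9%, so 0 of 9 rows does not set the list apart. Its median log2 difference was -0.15, the same as over all genes. The smallest p of this list belonged to AKAP1, which anchors kinase to mitochondria (adjusted p = 0.32), GNAS, the stimulatory G protein subunit (0.39), and the kinase subunit PRKAR2A (0.50).

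On the response side, 8 rows of steroid receptors and their partners were tested, with a median log2 difference of -0.02. PAQR8, a membrane receptor for progesterone, was the call, lower in ICM (3.91, 6.09 and 2.62 RPKM in ICM 15, 22 and 25 against 18.2, 20.5 and 19.7 in TE 16, 23 and 24, log2 difference -2.03, SE 0.29, limma adjusted p = 0.020). PGR, the nuclear progesterone receptor, had low levels, 0.67 ± 0.11 RPKM in ICM and 2.05 ± 0.35 in TE (adjusted p = 0.095, and 0.039 without ICM 25). FKBP5, a chaperone partner of steroid receptors and a known glucocorticoid target, was at 2.64 ± 1.28 RPKM in ICM and 0.53 ± 0.29 in TE (adjusted p = 0.11, and 0.0096 without ICM 25). The estrogen receptors ESR1 and ESR2 were not analysed here.

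**Figure D5:**
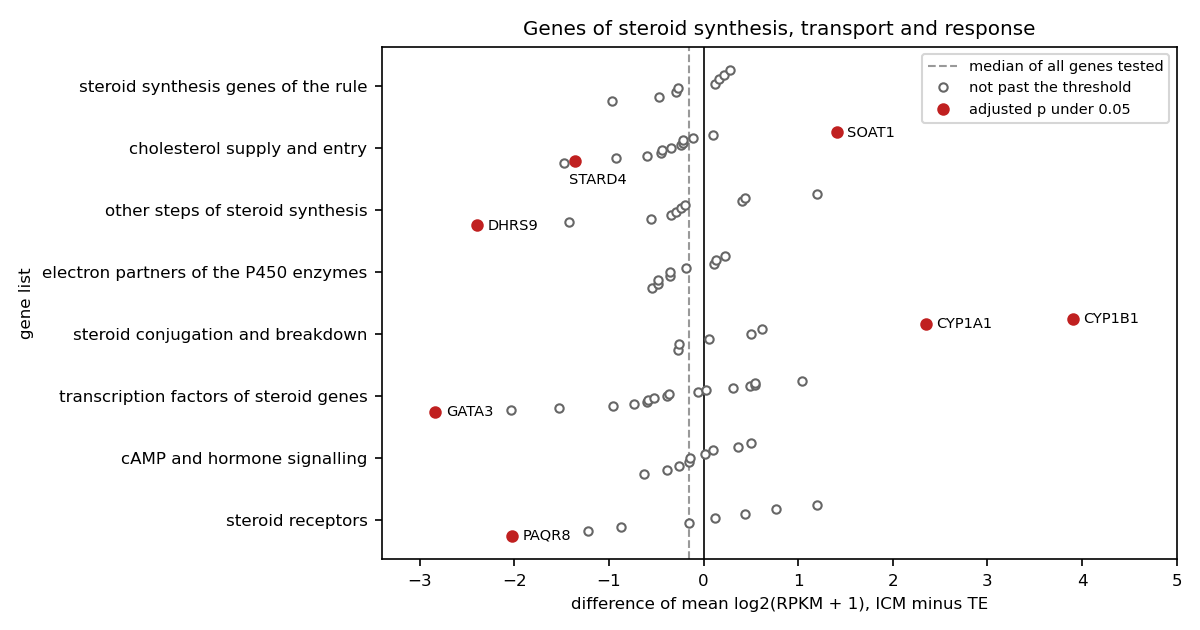
Difference of mean log2(RPKM + 1), ICM minus TE, for each gene tested in the steroid synthesis set (top) and the 7 lists around it, with 1 point per row. Filled points passed a limma adjusted p of 0.05; 3 of them lie on the side of ICM and 4 on that of TE, and the dashed line is the median of all genes tested (-0.15).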

How the data were processed

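The authors deposited 1 table whose header gives 6 library columns as RPKM. Further columns come from the authors' DESeq analysis, per the file headers: mean normalized counts (a signal), the ratio of ICM to TE, the log2 of that ratio, and a raw and an adjusted p-value. The tools the authors named are FastQC and DESeq, per the submitters' processing notes. For the aligner, counter, build, annotation and strand, the entry is: not given in the sources used here. In each row 2 or more libraries reach 0.4 RPKM.

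RPKM and mean normalized counts together gave back whole reads (within 0.001 reads for 100% of values of up to 1000 reads). Reads per library set the counting intervals (exact Poisson, 95%). The recovered reads do not separate molecules from amplified copies.

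Genes that reached 1 RPKM in 3 or more libraries were kept. The test was limma's moderated test (version 3.58.1, R 4.3.3, eBayes with trend) on log2(RPKM + 1), two-sided, with Benjamini-Hochberg adjustment over all genes kept, after a test on simulated data. Single ratios were tested by exact permutation. Symbols were matched to the NCBI table of assembly TB-T2T (8 of 9 by symbol, 1 by a synonym), which was used for names only. The genes, lists and tests were chosen with earlier results of these data known. The text names all 9 genes, every called gene and the 3 smallest p of each list, and 4 genes most like STAR, CYP17A1 and CYP19A1, of which some are not reported here. Alternatives were another pseudocount, other filters, 2 rescalings, library weights, voom, and leaving out each library, with the genes kept held fixed. Genes named from the fit without ICM 25 were chosen after their values were seen.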

Additional observations from a re-analysis of the deposited data

How the results depend on the processing

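The steroid synthesis genes had 0 calls under another pseudocount, no filter, a filter of 5 RPKM, both rescalings and voom. The filter of 5 RPKM kept only STAR, CYP19A1, FDX1 and POR of them, and without a filter FDXR was tested too. With library weights 1 was called (POR, limma adjusted p = 0.033), and with each library left out 0 to 2. The 2 were FDX1 and POR without ICM 25. STAR turned to -0.00082 and CYP17A1 to -0.999 without ICM 25, CYP17A1 to -0.64 with library weights, CYP19A1 to 0.20 without ICM 15 and to 0.08 without TE 16, and HSD17B1 to 0.0082 without ICM 15. These 6 of 100 alternative values of single genes changed sign, none of them called, and 3 passed the threshold anew. With a library left out, POR stayed between -1.08 and -0.84, HSD3B1 between -0.75 and -0.09, FDX1 between 0.06 and 0.66 and CYP11A1 between 0.02 and 0.45, while STAR reached 0.24, CYP17A1 0.999, CYP19A1 -0.97 and HSD17B1 -0.73. The CYP19A1 to CYP17A1 ratio ranged from -0.9998 to 0.35 with a library left out, and turned to 0.35 without ICM 25 and to 0.06 without TE 16.

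The 176 genes called by limma over the table came to 112 after adding 0.1 in place of 1, 114 unfiltered, 81 at a minimum of 5 RPKM (29 higher in ICM and 52 in TE) and 760 with library weights. They ranged from 0 (without TE 16, with 983 at an unadjusted p under 0.05) to 1086 (without ICM 25), with 18 without ICM 15, 76 without ICM 22, and 1 without TE 23 and without TE 24. The 88 calls in each direction became 128 higher in ICM and 64 in TE with median of ratios rescaling, 129 and 77 with quantile normalization and 113 and 66 with voom, where the median of all genes moved from -0.15 to 0.005, -0.03 and -0.02. Calls in the 7 lists were 5 to 8 under the other filters, pseudocount, rescalings and voom, 17 with library weights, and 0 to 21 with a library left out: 0 without any 1 TE library, 4 without ICM 15 and 21 without ICM 25. The cause of these changes was not tested. No paired analysis was possible because the ICM and TE libraries share no replicate number. FDXR, with 2 to 34 reads a library, and HSD17B1, with 16 to 85, rest on the fewest reads of the 9 genes, which limits the precision of their values.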
